A study of Mus musculus with 5 samples.

Results

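Cul7 and Cul9, the atypical members of the cullin family, and Fbxw8, the F-box partner of Cul7, were described across 5 mouse samples on Affymetrix expression arrays. They were chosen by name, as every probe set whose first gene symbol in the deposited cullin and F-box sheets was Cul7, Cul9 or Fbxw8. This gave 3 of the 71 genes and 7 of the 130 probe sets in the sheets, namely 1 probe set of Cul7, 2 of Cul9 and 4 of Fbxw8. A probe set is the group of short oligonucleotides on the array that reads 1 stretch of a transcript. The samples were left ventricular tissue, isolated cardiomyocytes (CM), lung fibroblasts and non-failing cardiac fibroblasts, all from healthy C57Bl/6N mice, and failing cardiac fibroblasts from hearts of beta1-adrenergic transgenic mice in heart failure. All mice were male and 6 months old, and each sample was 1 pool of 5 mice. The failing sample thus differs from the non-failing one in genotype as well as in disease, and these cannot be told apart. The labels do not name the promoter that drives the transgene. Because every condition had 1 sample, no value has a replicate error, no difference between samples was tested, and the number of arrays limits the precision.

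Cullins are scaffold proteins of ubiquitin ligases. They hold a RING protein, which brings in the ubiquitin-loaded E2 enzyme, at one end and a substrate receptor at the other. Cul7 works with the RING protein Rbx1, the adaptor Skp1 and, among F-box proteins, with Fbxw8, whose WD40 repeats bind the substrate. Insulin receptor substrate 1 is a known target of this ligase. Together with Obsl1 and Ccdc8, Cul7 forms the 3M complex, named after the human growth disorder that mutations of its genes cause, and mice that lack Cul7 or Fbxw8 grow poorly before birth and have abnormal placentas. Cul9, listed under its older name Parc in part of the sheets, is a large relative of Cul7 that binds p53 in the cytoplasm and carries a RING domain region of its own. Of 11 further partners listed for these ligases, among them Skp1a, Rbx1, Obsl1, Ccdc8 and Trp53, 0 were named in the sheets, and neither were any of 20 listed markers of cardiomyocytes, fibroblasts, endothelial cells and leukocytes. The table of the whole array lists its probe sets without gene names and was not used for markers, so the labelled cell types were not checked here.

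In the mouse RefSeq annotation (assembly GRCm38.p6) Cul7 and Cul9 both lie on chromosome 17, with 5 genes between them, of which 4 code for proteins (Srf, Ptk7, Klc4 and Mrpl2), whereas Fbxw8 lies on chromosome 5. The RefSeq promoter table matched Cul7 and Cul9. The 250 bases before their annotated starts are shown because these neighbouring relatives differed in opposite directions between some of the samples. The Cul7 window is chr17:46650088-46650337 on the plus strand and the Cul9 window chr17:46546389-46546638 on the minus strand, each written 5′ to 3′ with motif matches in capitals.
Cul7: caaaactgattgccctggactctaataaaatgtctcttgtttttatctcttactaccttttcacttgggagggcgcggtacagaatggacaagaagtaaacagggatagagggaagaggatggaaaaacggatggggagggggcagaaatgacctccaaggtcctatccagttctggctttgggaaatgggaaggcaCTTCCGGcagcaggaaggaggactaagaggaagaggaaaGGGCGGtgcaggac
Cul9: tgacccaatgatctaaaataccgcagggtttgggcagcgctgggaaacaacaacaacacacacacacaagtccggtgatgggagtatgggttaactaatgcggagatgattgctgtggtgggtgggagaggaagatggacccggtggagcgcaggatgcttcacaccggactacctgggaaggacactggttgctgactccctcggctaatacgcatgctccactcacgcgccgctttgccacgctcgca
The capitals in the Cul7 window mark a match to the ETS motif on the opposite strand and, closer to the start, a match to the GC box. The ETS motif, searched as CCGGAAG on both strands, was found in 6.91% of the 32851 promoter windows of this length. The GC box, searched as GGGCGG on both strands, was found in 32.7% of them. An E-box (searched as CACGTG) and a TATA box (searched as TATAAA) had no match on either strand of either window. The same held for an E2F motif, searched as TTTCGCG, which 0.703% of all windows held, and for an NRF1 motif, searched as GCGCATGC, which 2.26% held. The E-box was found in 6.02% and the TATA box in 12.4% of all windows. None of the 6 motifs overlapped another in these windows. The Cul7 window held 5 CG pairs and the Cul9 window 14, against a median of 6 over all windows. These matches describe the sequence and are neither measured binding sites nor tested causes of the levels.

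Levels are on the log2 scale of the sheets throughout, and the level of a gene is the mean over its probe sets. Where a gene has several probe sets, their standard deviation (SD) is the spread within 1 array and no replicate error. The values of the 130 probe sets were spread differently in the samples, which may thus not be on a common scale. The median of the 130 probe sets was 4.76 in left ventricle and between 6.22 and 6.67 in the other 4 samples, and the lowest value was -3.32 in left ventricle, -0.75 in CM and 1.76 in lung fibroblasts, but 4.76 in failing and 4.82 in non-failing cardiac fibroblasts. As linear values the 7 probe sets had at most 1 decimal in left ventricle, which was so for 0 of the 7 in each other sample. How the scale contributes to the differences was not tested. Both scalings used below, equal medians and quantile normalization, were computed over these 130 probe sets only. Setting the medians of the samples equal moved left ventricle by 1.33 on the log2 scale, CM by -0.14, failing cardiac fibroblasts by -0.42, lung fibroblasts by -0.18 and non-failing cardiac fibroblasts by -0.58. Each difference is therefore also given by position, the percentage of the 130 probe sets that lay below a probe set in the same sample, which does not move with such a shift. Positions are compared between samples for the same probe set only.

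**Figure D1:**
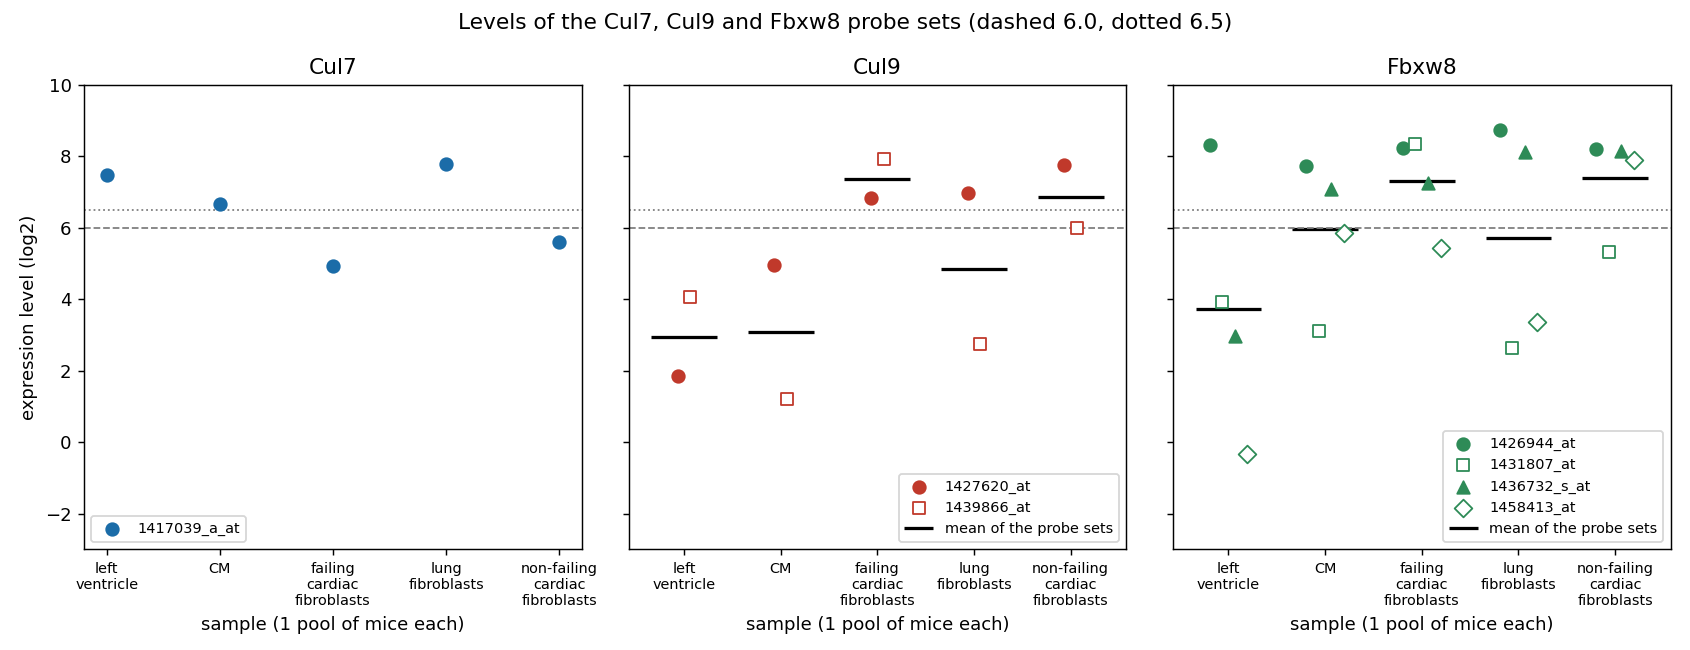
Expression levels on the log2 scale (y axis) of each probe set of Cul7, Cul9 and Fbxw8 in the 5 samples (x axis, 1 pool of mice each), with bars at the mean over the probe sets of Cul9 and of Fbxw8, and lines at the manufacturer's levels of 6.0 (dashed) and 6.5 (dotted). The single Cul7 probe set lies below 6.0 in both cardiac fibroblast samples, the Cul9 means lie above 6.5 in these 2 samples and below 6.0 in the other 3, and the Fbxw8 probe sets spread over up to 8.65 log2 units within 1 sample.

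Cul7, the scaffold, was higher in lung fibroblasts, left ventricle and CM than in either cardiac fibroblast sample. Its only probe set, 1417039_a_at, had a log2 level of 7.47 in left ventricle, 6.66 in CM, 4.93 in failing cardiac fibroblasts, 7.79 in lung fibroblasts and 5.59 in non-failing cardiac fibroblasts. As linear values these are 177, 101, 30.4, 222 and 48.2 in the same order of samples. The highest sample, lung fibroblasts, stood 7.29-fold above the lowest, failing cardiac fibroblasts. The levels thus fell into 3 samples above 6.0, the level that the sources give as the manufacturer's mark of expression, and 2 samples below it. A mean of at least 6.0 was reached by 33.8% of the 71 genes in left ventricle, 53.5% in CM and 49.3% in lung fibroblasts, with Cul7 among them. In failing cardiac fibroblasts 73.2% and in non-failing ones 74.6% of the genes reached it, and Cul7 did not. The position of the Cul7 probe set within its sample gave the same picture, with 76.2% of the 130 probe sets below it in left ventricle, 55.4% in CM, 3.08% in failing cardiac fibroblasts, 77.7% in lung fibroblasts and 10% in non-failing cardiac fibroblasts. Since Cul7 was read by 1 probe set, there is no second reading of this pattern in the data.

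Cul9, the p53-binding relative, had its higher levels in the cardiac fibroblasts. Its mean level was 2.95 in left ventricle with an SD of 1.57 over the 2 probe sets, 3.08 in CM with an SD of 2.64, 7.38 in failing cardiac fibroblasts with an SD of 0.79, 4.85 in lung fibroblasts with an SD of 2.98 and 6.86 in non-failing cardiac fibroblasts with an SD of 1.25. The span from the highest mean, in failing cardiac fibroblasts, to the lowest, in left ventricle, was 21.5-fold. The lowest values of all probe sets in these samples also lay apart, at 4.76 and -3.32. The span stayed wide when left ventricle was left out, at 4.30 on the log2 scale, against 4.42 over all 5 samples. The neighbours in this order, failing and non-failing cardiac fibroblasts, differed by 0.52, and left ventricle and CM by -0.12, both less in size than the SD of the probe sets in either sample of the pair.

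The 2 probe sets of Cul9 shared part of this order. Probe set 1427620_at read 1.85 in left ventricle, 4.94 in CM, 6.82 in failing cardiac fibroblasts, 6.96 in lung fibroblasts and 7.74 in non-failing cardiac fibroblasts. Probe set 1439866_at read 4.06 in left ventricle, 1.21 in CM, 7.94 in failing cardiac fibroblasts, 2.74 in lung fibroblasts and 5.98 in non-failing cardiac fibroblasts. Both were higher in the 2 cardiac fibroblast samples than in CM and in left ventricle. They parted on lung fibroblasts, which stood between the 2 cardiac fibroblast samples by 1427620_at and below left ventricle by 1439866_at, and on which cardiac fibroblast sample was the higher one. The sources used here do not say which transcript form each probe set reads.

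Fbxw8, the receptor that pairs with Cul7, had mean levels of 3.73 in left ventricle, 5.95 in CM, 7.32 in failing cardiac fibroblasts, 5.72 in lung fibroblasts and 7.40 in non-failing cardiac fibroblasts. The SD over its 4 probe sets was 3.57 in left ventricle, 2.04 in CM, 1.35 in failing cardiac fibroblasts, 3.16 in lung fibroblasts and 1.39 in non-failing cardiac fibroblasts. These are wider than the median SD of the 32 genes with several probe sets in every sample, which was 3.005 in left ventricle, 1.71 in CM, 0.96 in failing cardiac fibroblasts, 1.81 in lung fibroblasts and 1.02 in non-failing cardiac fibroblasts. The 32 genes include Fbxw8 and Cul9 and have unlike numbers of probe sets, which this comparison of SDs does not allow for. Failing and non-failing cardiac fibroblasts, and CM and lung fibroblasts, are neighbours whose means differ by less than the Fbxw8 SDs.

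The Fbxw8 mean combined probe sets that behaved differently. On the scale of the sheets, probe set 1426944_at was nearly level across the study. It read 8.33 in left ventricle, 7.74 in CM, 8.23 in failing cardiac fibroblasts, 8.73 in lung fibroblasts and 8.21 in non-failing cardiac fibroblasts. Its range of 0.99 on the log2 scale, or 1.99-fold, was among the narrowest of all 130 probe sets: 1 probe set, of Fbxw2, had a narrower range and 128 a wider one, with a median of 4.84. All 5 values lay above 6.0. Probe set 1436732_s_at read 2.96 in left ventricle, 7.09 in CM, 7.27 in failing cardiac fibroblasts, 8.13 in lung fibroblasts and 8.16 in non-failing cardiac fibroblasts. Left ventricle alone carried most of its range, which was 5.20 over the 5 samples and 1.07 without that sample. By the array maker's naming, the ending _s_at marks probe sets that can match more than 1 transcript.

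The remaining pair of Fbxw8 probe sets varied widely. Probe set 1431807_at read 3.94 in left ventricle, 3.12 in CM, 8.34 in failing cardiac fibroblasts, 2.63 in lung fibroblasts and 5.32 in non-failing cardiac fibroblasts, so that failing cardiac fibroblasts alone stood above 6.0. Probe set 1458413_at read -0.32 in left ventricle, 5.86 in CM, 5.42 in failing cardiac fibroblasts, 3.37 in lung fibroblasts and 7.89 in non-failing cardiac fibroblasts, so that non-failing cardiac fibroblasts alone stood above 6.0. The 2 probe sets thus put the 2 cardiac fibroblast samples in opposite order, by 3.02 and by -2.47 for failing minus non-failing. Levels of at least 6.0 were read by 1 of 4 probe sets in left ventricle, 2 of 4 in CM, 3 of 4 in failing cardiac fibroblasts, 2 of 4 in lung fibroblasts and 3 of 4 in non-failing cardiac fibroblasts. Over the sheets, 35.4% of probe sets reached 6.0 in left ventricle, 54.6% in CM, 66.9% in failing cardiac fibroblasts, 55.4% in lung fibroblasts and 72.3% in non-failing cardiac fibroblasts.

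**Figure D2:**
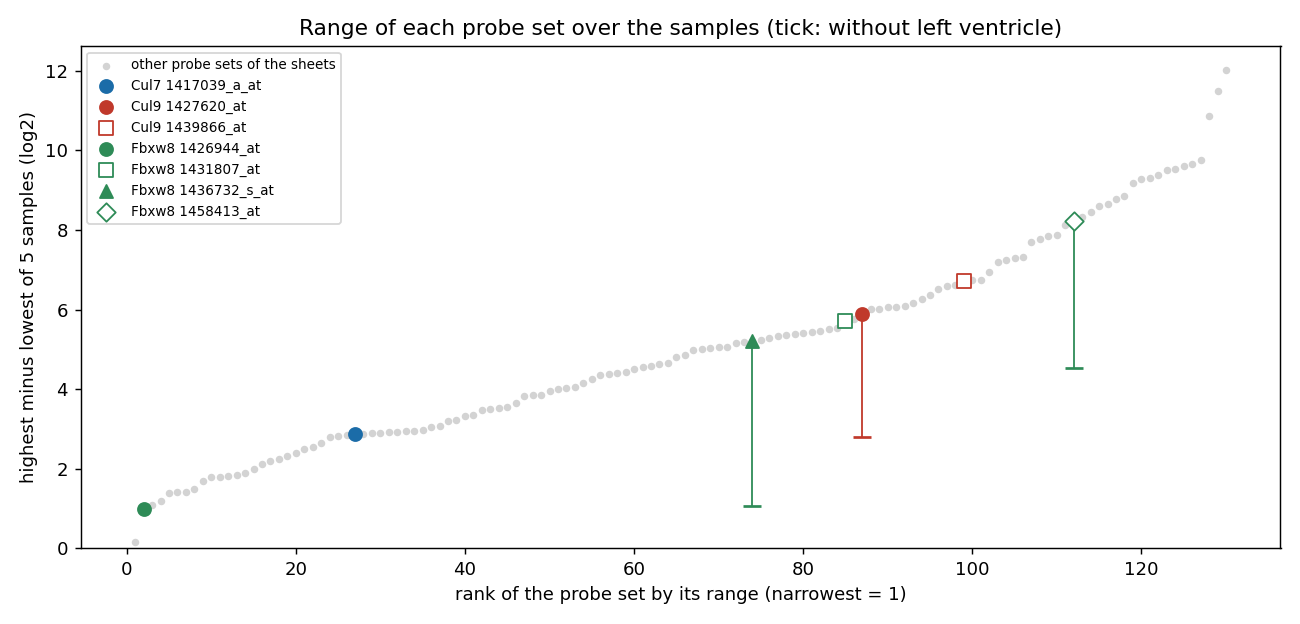
Highest minus lowest of the 5 samples on the log2 scale (y axis) for each of the 130 probe sets, ranked from the narrowest range (x axis), with the 7 probe sets of Cul7, Cul9 and Fbxw8 in colour and ticks at their range without left ventricle where it differs. Fbxw8 1426944_at lies near the narrow end at 0.99, Cul7 at 2.87, and Fbxw8 1458413_at at 8.21, or 4.52 without left ventricle.

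Ranges of the other probe sets lay on both sides of the median. The Cul7 range of 2.87 was exceeded by 103 of the 130 probe sets. Cul9 ranges were 5.90 for 1427620_at and 6.72 for 1439866_at, and Fbxw8 ranges 5.70 for 1431807_at and 8.21 for 1458413_at. Without left ventricle the median range over all probe sets was 2.95. That of Cul9 1427620_at then was 2.80 and that of Fbxw8 1458413_at 4.52, whereas Cul7, Cul9 1439866_at, Fbxw8 1426944_at and Fbxw8 1431807_at kept their ranges, since their highest and lowest samples were among the other 4.

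The comparison of CM with non-failing cardiac fibroblasts asks which subunits differ between the muscle cells and the fibroblasts of the healthy heart. Cul7 was 2.10-fold higher in CM, where it stood at 6.66, against 5.59 in the fibroblasts. Cul9 was 13.8-fold lower in CM, where its mean was 3.08, against 6.86 in the fibroblasts. Fbxw8 was 2.72-fold lower, with a mean of 5.95 in CM against 7.40 in the fibroblasts. The lowest value of all probe sets was -0.75 in CM but 4.82 in the fibroblasts. A gene near the lowest values of both samples would thus also read many-fold lower in CM. By position both Cul9 probe sets were lower in CM too, at 29.2% against 73.8% and 7.69% against 26.2% in the fibroblasts. All 3 genes passed a fixed rule of size, a difference of 2-fold or more where 1 of the 2 samples, or both, reached 6.0. So did 21.1% of the 71 genes in the higher and 36.6% in the lower direction, so that passing the rule was common here. Of the genes past the rule 36.6% were higher in CM on the scale of the sheets, 51.3% once the medians were set equal and 47.4% after quantile normalization.

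The probe sets of Cul9 and Fbxw8 shared the direction of this difference. Cul9 differed by -2.80 in 1427620_at and by -4.77 in 1439866_at. Fbxw8 differed by -0.47 in 1426944_at, -2.19 in 1431807_at, -1.07 in 1436732_s_at and -2.04 in 1458413_at. At least 2-fold lower were thus both Cul9 and 3 of the 4 Fbxw8 probe sets, while 46.2% of the 130 probe sets were 2-fold lower and 29.2% 2-fold higher, as Cul7 was. Among the 32 genes with several probe sets, 13 had all of them in 1 direction in this pair. The Fbxw8 difference came to -0.997 with equal medians and to -0.93 with quantile normalization, and so no longer passed the rule. The position of Fbxw8 1431807_at also went the other way, with 14.6% of the probe sets below it in CM and 3.85% in the fibroblasts, and quantile normalization turned its difference to 1.05. For Cul7 and Cul9 the direction held with both scalings, at 1.51 and 3.34 for Cul7 and -3.34 and -2.27 for Cul9.

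Failing against non-failing cardiac fibroblasts is the contrast of disease together with genotype. None of the 3 genes passed the rule, while 19.7% of the 71 genes did in the higher and 22.5% in the lower direction. Cul7 was 1.59-fold lower in the failing sample, at 4.93 against 5.59 in the non-failing one. Cul9 was 1.43-fold higher on average, at 7.38 in failing against 6.86 in non-failing cardiac fibroblasts, but 1427620_at differed by -0.92 and 1439866_at by 1.95. With quantile normalization the Cul9 difference of 0.52 came to 1.10 and passed the rule, and with equal medians to 0.67, which did not. Fbxw8 had nearly equal means, at 7.32 in failing and 7.40 in non-failing cardiac fibroblasts, a difference of -0.08 whose sign turned with both scalings (0.08 with equal medians and 0.26 with quantile normalization). Its probe sets differed by 0.02 in 1426944_at, 3.02 in 1431807_at, -0.90 in 1436732_s_at and -2.47 in 1458413_at. The near-equal Fbxw8 means thus came from probe sets that differed by up to 8.11-fold in one direction and 5.53-fold in the other. Fbxw8 1431807_at and Cul9 1439866_at were among the 21.5% of the 130 probe sets that were 2-fold or more higher in the failing sample, and Fbxw8 1458413_at was among the 28.5% that were 2-fold or more lower. All probe sets ran in 1 direction in 10 of the 32 genes with several, and neither Cul9 nor Fbxw8 was one of them. With 1 sample each, a change between the conditions cannot be told apart from the noise of single probe sets.

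**Figure D3:**
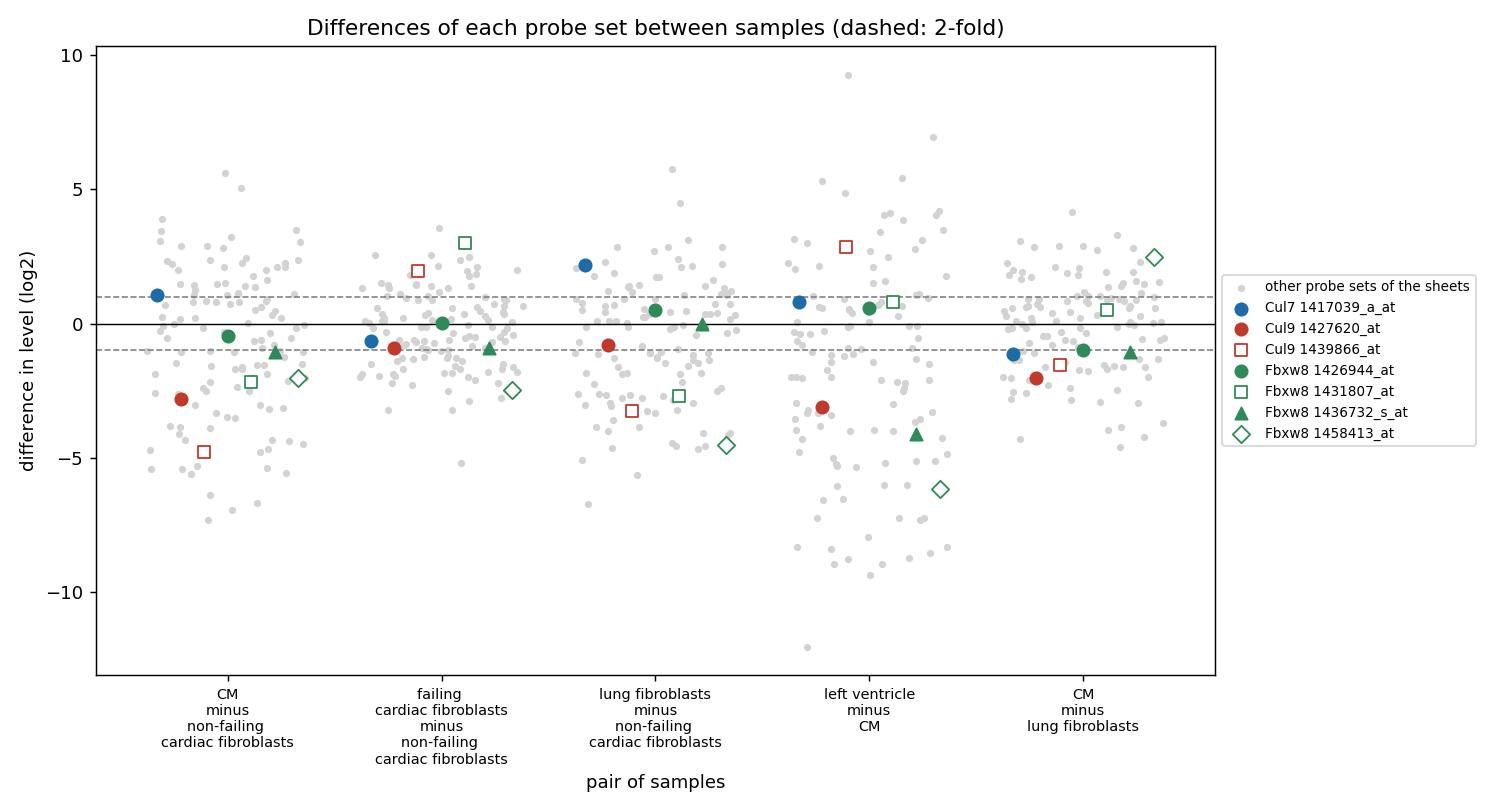
Log2 differences of each probe set (y axis) in the 5 pairs of samples (x axis, the sample named first minus the one named second), with the 7 probe sets of Cul7, Cul9 and Fbxw8 in colour, the other 123 probe sets of the sheets in grey and dashed lines at 2-fold. For CM minus non-failing cardiac fibroblasts all 6 Cul9 and Fbxw8 probe sets lie below 0 and Cul7 above it, whereas for failing minus non-failing cardiac fibroblasts the Fbxw8 probe sets run from -2.47 to 3.02.

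Lung fibroblasts were set against non-failing cardiac fibroblasts to compare fibroblasts of 2 organs. Cul7 was 4.59-fold higher in lung fibroblasts, at 7.79 against 5.59 in non-failing cardiac fibroblasts, and 14.1% of the 71 genes passed the rule in this direction. The size of this Cul7 difference depended on the scale, at 2.20 on that of the sheets, 2.60 with equal medians and 4.70 with quantile normalization. Cul9 was 4.03-fold lower, at 4.85 in lung against 6.86 in non-failing cardiac fibroblasts, and Fbxw8 3.20-fold lower, at 5.72 against 7.40 in non-failing cardiac fibroblasts, a direction in which 42.3% of the genes passed. The lowest value of all probe sets was 1.76 in lung and 4.82 in non-failing cardiac fibroblasts. Cul9 and Fbxw8 still passed with equal medians, at -1.61 and -1.28, and with quantile normalization, at -1.38 and -1.12. Of the genes past the rule 25% were higher in lung fibroblasts on the scale of the sheets, 45.9% once the medians were set equal and 48.8% after quantile normalization. Cul9 differed by -0.78 in 1427620_at and by -3.24 in 1439866_at. For Fbxw8 1458413_at differed by -4.52 and 1431807_at by -2.68, but 1436732_s_at by -0.03 and 1426944_at by 0.52. The value of 1431807_at came to 0.05 with quantile normalization and that of 1436732_s_at to 0.38 with equal medians. On the scale of the sheets the lower Fbxw8 mean thus rested on 2 of the 4 probe sets. Of these 2, only 1458413_at was also lower by position, at 15.4% in lung and 79.2% in non-failing cardiac fibroblasts. The position of 1431807_at was 4.62% in lung and 3.85% in non-failing cardiac fibroblasts. Over the sheets 44.6% of probe sets were at least 2-fold lower in lung fibroblasts, as were these 2 and 1439866_at of Cul9, and 23.8% at least 2-fold higher, as was Cul7. This pair, the one with CM and the one with failing cardiac fibroblasts share the non-failing sample, so that a low or high value there enters all 3.

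Left ventricle was set against CM to compare the whole tissue with its muscle cells. In tissue, fewer cells of a type and less RNA per cell cannot be told apart. None of the 3 genes passed the rule, which 14.1% of the 71 genes did in the higher and 31% in the lower direction (31.3% of these higher on the scale of the sheets, 62.8% once the medians were set equal and 60% after quantile normalization). Cul7 was 1.75-fold higher in left ventricle, at 7.47 against 6.66 in CM, and passed the rule once the samples were scaled, at 2.27 with equal medians and 1.27 with quantile normalization. The Cul9 means were 2.95 in left ventricle and 3.08 in CM. Its probe sets differed by -3.10 in 1427620_at and 2.85 in 1439866_at, and the mean difference turned to 1.34 with equal medians and 1.24 with quantile normalization. The difference of 1427620_at shrank to -1.63 with equal medians and to -0.41 with quantile normalization. Fbxw8 was 4.68-fold lower in left ventricle, at 3.73 against 5.95 in CM, with neither level at 6.0. Most of this difference went with the scaling, which left -0.76 with equal medians and -0.40 with quantile normalization. Its probe sets differed by 0.59 in 1426944_at, 0.81 in 1431807_at, -4.13 in 1436732_s_at and -6.18 in 1458413_at. With equal medians these came to 2.05, 2.28, -2.66 and -4.71 in the same order. With quantile normalization they came to 1.02, 2.003, -1.98 and -2.64. With both scalings 1426944_at and 1431807_at were thus at least 2-fold higher in left ventricle, and 1436732_s_at and 1458413_at at least 2-fold lower. On the scale of the sheets 52.3% of probe sets were at least 2-fold lower in left ventricle, among them 1436732_s_at, 1458413_at and Cul9 1427620_at. Cul9 1439866_at was among the 23.1% at least 2-fold higher.

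The last pair set CM against lung fibroblasts, which shares no sample with the contrast of the 2 cardiac fibroblasts. Both of its samples were set against non-failing cardiac fibroblasts above, so its differences follow from those and are no independent reading. Cul7 was 2.19-fold lower in CM, at 6.66 against 7.79 in lung fibroblasts, and passed the rule, as did 18.3% of the 71 genes in this direction and 16.9% in the other. Cul9 was 3.42-fold lower in CM, at 3.08 against 4.85 in lung fibroblasts, a difference of -1.77 that came to -1.73 with equal medians and to -0.89 with quantile normalization. Both of its probe sets were lower, by -2.02 in 1427620_at and -1.53 in 1439866_at on the log2 scale, although the position of 1439866_at was 7.69% in CM and 5.38% in lung fibroblasts and its difference came to 0.12 with quantile normalization. Neither mean reached 6.0, so the rule was not passed. Fbxw8 was 1.18-fold higher, at 5.95 in CM against 5.72 in lung fibroblasts, from differences of -0.99, 0.49, -1.04 and 2.49 in 1426944_at, 1431807_at, 1436732_s_at and 1458413_at. Over the sheets 25.4% of probe sets were at least 2-fold higher in CM, 1458413_at among them, and 30.8% at least 2-fold lower, among them Cul7, both Cul9 probe sets and 1436732_s_at.

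**Figure D4:**
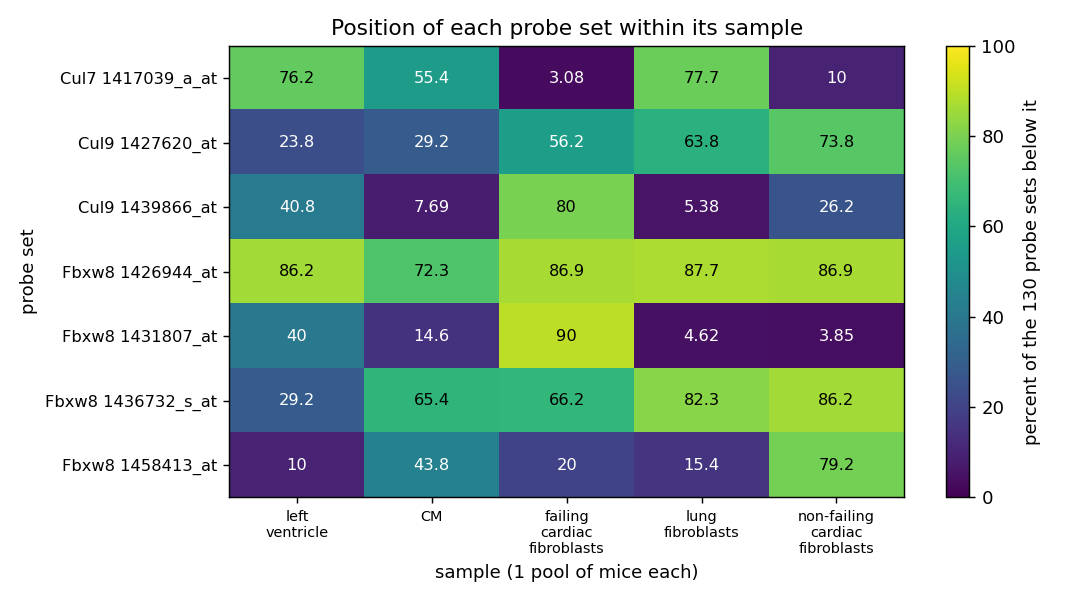
Percentage of the 130 probe sets that lie below each of the 7 probe sets (rows) within each of the 5 samples (columns), with darker or lighter colour by that percentage. Cul7 lies at 3.08 and 10 in the 2 cardiac fibroblast samples and at 55.4 to 77.7 in the other 3, while Fbxw8 1426944_at stays between 72.3 and 87.7.

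Positions changed in the same direction as levels for all but 4 of the 35 differences, the 7 probe sets in 5 pairs. In 3 of these the position went the other way, namely Fbxw8 1431807_at in CM and in lung fibroblasts against non-failing cardiac fibroblasts and Cul9 1439866_at in CM against lung fibroblasts, and in 1, Fbxw8 1426944_at in failing against non-failing cardiac fibroblasts, it was equal. The 3 that turned were low readings in CM or lung fibroblasts, at 3.12 or less on the log2 scale.

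The other cullins of the sheets are the canonical scaffolds Cul1 to Cul5, 6 genes with Cul4a and Cul4b counted apart. In CM against non-failing cardiac fibroblasts 3 of the 6 passed the rule as higher and 0 as lower, with a median difference of 1.05, against -0.51 over all 71 genes. Cul7 at 1.07 lay close to this median and Cul9 at -3.79 below the lowest of the 6, which was -1.10. In lung against non-failing cardiac fibroblasts 2 passed as higher and 0 as lower, with differences from 0.25 to 2.42, between which Cul7 at 2.20 also lay, while Cul9 stood at -2.01. In left ventricle against CM the 6 ran from -12.03 to -0.45, of which 4 passed as lower, and Cul7 was higher in left ventricle, at 0.81. It was the 1 cullin with a positive difference on the scale of the sheets, but not once the samples were scaled. Cul9, at 1.34 with equal medians and 1.24 with quantile normalization, and Cul4b, at 1.01 and 0.59, then had one too. In failing against non-failing cardiac fibroblasts 0 passed as higher and 1 as lower. In CM against lung fibroblasts 1 of the 6 passed as higher and 2 as lower.

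Among the 12 other Fbxw genes, the WD40-repeat receptors to which Fbxw8 belongs, 2 passed as higher and 5 as lower in CM against non-failing cardiac fibroblasts, with a median difference of -1.99. Fbxw8 at -1.44 was on the same side. In lung against non-failing cardiac fibroblasts 1 passed as higher and 8 as lower, with a median of -1.55, next to -1.68 for Fbxw8 and -1.08 over all genes. In failing against non-failing cardiac fibroblasts 3 passed each way. In left ventricle against CM 3 passed each way too, and in CM against lung fibroblasts 2 passed as higher and 1 as lower.

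The genes whose levels varied most like those of a member were found by the root mean square difference over the 5 samples, after the mean of each gene over the samples was taken away. For Cul7 these were Fbxl14, a receptor for the transcription factor Snail, at 0.50 on the log2 scale, Fbxl5, the iron sensor, at 0.50, and Fbxo10 at 0.52, against a median of 2.15 over the other 70 genes. Each of them was read by 1 probe set, as Cul7 was. Fbxl14 read 9.84 in left ventricle, 7.68 in CM, 6.93 in failing cardiac fibroblasts, 9.70 in lung fibroblasts and 6.86 in non-failing cardiac fibroblasts. Like Cul7 it was lower in both cardiac fibroblast samples than in the other samples. In these fibroblasts Fbxl14 stayed above 6.5, whereas Cul7 lay below 6.0.

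For Cul9 the most alike were Fbxl7 at 0.80, Fbxl2 at 0.86 and Fbxl15 at 0.88, and for Fbxw8 Fbxl7 at 0.38, Fbxl15 at 0.42 and Fbxw2 at 0.55. Fbxl7, which was on both lists, had means of 3.70 in left ventricle, 5.05 in CM, 6.88 in failing cardiac fibroblasts, 5.87 in lung fibroblasts and 7.36 in non-failing cardiac fibroblasts over 4 probe sets. The probe sets of Fbxl7 had ranges from 1.19 to 9.77 and in left ventricle against CM differed by -7.25 to 5.31. The likeness to Cul9 and Fbxw8 is thus one of means over probe sets that differ, not of single probe sets. Cul9 and Fbxw8 differed from each other by 0.99, below the Cul9 median of 1.86 and the Fbxw8 median of 1.52. With quantile normalization they differed by 0.72, and only in that setting was each on the list of the other, at rank 3. The distance of Cul7 to its partner Fbxw8 was 2.31 and to its relative Cul9 2.78, both above the Cul7 median of 2.15. The lists changed with the samples and the scale used. Without left ventricle Fbxl14 was still first for Cul7 at 0.42 and Fbxl7 first for Fbxw8 at 0.40, but Fbxw17, Fbxo43 and Fbxo27 took the places for Cul9, and with quantile normalization Fbxo11 was first for Cul7, Fbxl2 for Cul9 and Fbxl7 for Fbxw8. These are descriptions over 5 samples on the same kind of array that may not be on a common scale, and say nothing of common control.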

How the data were processed

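Expression was measured in 5 mouse samples, 1 per condition, each a pool of 5 mice. The authors deposited 2 sheets with log2 levels of 130 probe sets and a table of 45101 probe sets as linear intensity. The paper names the Affymetrix Mouse Expression Set, and the probe set names are of that kind, but the sample labels describe whole-transcript labelling and the series a program for exon arrays, so how the log2 values were made is uncertain. For background correction, probe summary and normalization the methods were not given in the sources used here. For the 7 probe sets the deposited intensity and the antilog of the log2 value agreed within 1 percent or 0.01 units in all 35 values. The sheets also hold columns of the authors' own differences between samples, which were not used.

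Samples were grouped by their labelled cell type. Log2 values of the probe sets of a gene were averaged. With 1 sample per condition no test was possible, and differences were described in 5 pairs by a rule of size (2-fold or more, and 6.0 or more in 1 or both samples). Named are the 3 genes and, for each, the 3 genes most alike by root mean square difference. Members, lists and rules were chosen with earlier results of these data known. Alternatives were the median, highest or single probe sets, no _s_at or _x_at probe sets, the whole-array table, equal medians, quantile normalization, no rule on the level, and 1.5-fold. Leaving out left ventricle, and quantile normalization for the most alike genes, were added after seeing the data. The functions were tested on simulated data. Python 3.11.15, pandas 2.3.3, NumPy 2.4.6 and matplotlib 3.10.9 were used.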

Additional observations from a re-analysis of the deposited data

How the results depend on the processing

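No paired analysis was possible because no condition had more than 1 sample. Of the 15 differences of the 3 genes, 7 passed the rule of size as deposited, next to 168 of 355 (47.3%) over all 71 genes in the 5 pairs, so that passing was as common among the 3 genes as over the sheets. The whole-array table, which holds nearly the same values, moved none of the 15 across the rule. Leaving out _s_at and _x_at probe sets moved none either. It could change Fbxw8 only, since Cul7 and Cul9 have no such probe set. For Fbxw8 in CM against non-failing cardiac fibroblasts the rule was no longer passed with equal medians (-0.997), quantile normalization (-0.93), the highest probe set or 1426944_at alone (both -0.47), or 1431807_at alone (-2.19, with neither level at 6.0). For Cul9 in this pair it was not passed by 1439866_at alone (-4.77, with neither level at 6.0 and the higher at 5.98 in the fibroblasts). In lung against non-failing cardiac fibroblasts Cul9 no longer passed with the highest probe set or 1427620_at alone (both -0.78). It also did not pass with 1439866_at alone (-3.24, with neither level at 6.0). Fbxw8 no longer passed with 1431807_at (-2.68, with neither level at 6.0) or 1436732_s_at alone (-0.0262). Its difference turned with the highest probe set or 1426944_at alone (both 0.52). In failing against non-failing cardiac fibroblasts Cul9 passed with quantile normalization (1.10) and with 1439866_at alone (1.95), and Fbxw8 with 1458413_at alone (-2.47) and, turned, with 1431807_at alone (3.02). In left ventricle against CM Cul7 passed with equal medians (2.27), quantile normalization (1.27) and at 1.5-fold (0.81), and Fbxw8 with the median (-3.02), without the rule on the level (-2.23) and with 1436732_s_at alone (-4.13). In CM against lung fibroblasts Cul9 passed with the highest probe set or 1427620_at alone (both -2.02) and without the rule on the level (-1.77), and Fbxw8 turned and passed with 1436732_s_at alone (-1.04). The cause of the changes with scaling was not tested.

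Over all 71 genes, 10 were higher in lung fibroblasts when set against non-failing cardiac fibroblasts on the scale of the sheets, 18 with the highest probe set, 17 with equal medians, 20 with quantile normalization and 17 at 1.5-fold. In left ventricle against CM 10 were higher as deposited, 27 with equal medians, 21 with quantile normalization and 17 without the rule on the level, and 22 were lower as deposited, 14 with quantile normalization and 35 without that rule. In CM against lung fibroblasts 12 were higher as deposited and 19 at 1.5-fold, and 13 were lower and 25 without the rule on the level. The other 69 recomputed counts stayed within 1.5 times. No background signal was at hand for the probe sets, so low levels cannot be told apart from background.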
